A study of Drosophila melanogaster with 2 samples.

Results

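The Bearded family and Kaz-m1 genes are 9 short protein-coding genes that lie in 2 clusters of the Drosophila melanogaster genome. They were taken from a list of names and not by a cut on a measured value, but with earlier results of these data known. They are 9 of the 13945 protein-coding genes on the 6 chromosome arms. In the E(spl) complex on arm 3R stand E(spl)malpha-BFM, E(spl)m2-BFM, E(spl)m4-BFM, E(spl)m6-BFM and Kaz-m1, spread over 23.2 kb among genes for Hairy-related repressors. In the Bearded complex on 3L stand Brd, Tom, Ocho and BobA, spread over 30.5 kb. All 9 names were found in the annotation.

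The measurements came from chromatin immunoprecipitation sequencing (ChIP-seq), in which fragments of DNA bound by a protein are recovered with an antibody and sequenced. Whole embryos aged 0 to 24 h, of both sexes, carried a transgene for E(spl)m3-HLH fused at its C terminus to GFP, and chromatin was pulled down through the GFP. The labels also name E(spl)m3-HLH in their antibody field. All samples form 1 group, called E(spl)m3-GFP ChIP here, and are biological replicates 2 and 3 of 1 transgenic line. No control samples were analysed here, so every comparison is between genes. In embryos of mixed age, weak binding in many cells and strong binding in few cells cannot be told apart.

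Bearded family proteins are small cytoplasmic proteins that bind the ubiquitin ligase Neuralized and keep it from driving endocytosis of the ligand Delta, which restrains Notch signalling. Many of their genes are themselves switched on by Notch through the transcription factor Su(H). E(spl)m3-HLH, the tagged protein, is a repressor made from the same complex as 5 of the members, and it acts with the corepressor Groucho. Kaz-m1 is not a Bearded gene: it encodes a protease inhibitor of the Kazal type and stands between E(spl)malpha-BFM and E(spl)m2-BFM.

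Each peak in the deposited lists has a summit, its position of highest enrichment, and a signal, the enrichment score of the authors' peak caller. The thresholded list held 5701 peaks that passed the authors' irreproducible discovery rate procedure, a test of how reproducibly peaks are ranked. Which sets of reads it compared is not stated. These peaks were exactly the 5701 strongest of the pooled list of 25791. The lists of replicates 2 and 3 held 30000 and 24781 peaks. Signal has its own scale in each list, so genes are compared within a list and lists by rank, where rank 1 is the strongest peak. Sequencing depth is unknown and a signal carries no error of its own, so the spread is shown by the values of both replicates. A summit was given to a gene when it lay in the gene or within 3 kb of either end.

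Within 3 kb, thresholded peaks were found at all members of one cluster. In the other, with only 4 members, the count was not far from the share of all protein-coding genes. All 5 members in the E(spl) complex had a thresholded summit, against 1 of the 4 members in the Bearded complex, Ocho. Among all protein-coding genes 45.6% had one, and among the 5763 genes no longer than the longest member, 1767 bp, 33.6% did. Within 1 kb in place of 3 kb the counts were 2 of 5 (Kaz-m1 and E(spl)m2-BFM) and 0 of 4, with 33.9% of all genes, so the count for the E(spl) complex rested on the distance. Within 5 kb they were 5 of 5 and 2 of 4, with 54.4% of all genes, and among the 2850 strongest thresholded peaks within 3 kb 5 of 5 and 0 of 4, with 30.1%. With the 5701 strongest peaks of replicate 2 in place of the thresholded list the counts were again 5 of 5 and 1 of 4, with 46.2% of all genes. With those of replicate 3 they were 5 of 5 and 4 of 4, with 44.1% of all genes, so the count for the Bearded complex rested on which replicate was read. In the complete lists every member had a summit, but so did 79.6% of all genes in the pooled list, and 82.3% and 80.7% in the lists of replicates 2 and 3. Genes of a cluster share summits and are not independent, so no test was made of these counts.

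Of the 8 thresholded summits around members, 7 are shown first as sequence, 50 bp to each side of the summit on the forward strand of dm6, because the signals below belong to these stretches. Capitals would mark a match to any of the motifs described further on, and these 7 hold none.
Upstream of E(spl)malpha-BFM (chr3R:26009027-26009127): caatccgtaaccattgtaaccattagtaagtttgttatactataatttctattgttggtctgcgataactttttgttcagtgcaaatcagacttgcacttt
Between E(spl)malpha-BFM and Kaz-m1 (chr3R:26012919-26013019): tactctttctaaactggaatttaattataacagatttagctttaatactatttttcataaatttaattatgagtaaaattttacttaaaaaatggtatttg
Upstream of E(spl)m2-BFM (chr3R:26017976-26018076): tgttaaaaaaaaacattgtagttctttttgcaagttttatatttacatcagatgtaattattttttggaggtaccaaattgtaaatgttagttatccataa
Between E(spl)m2-BFM and E(spl)m4-BFM (chr3R:26021381-26021481): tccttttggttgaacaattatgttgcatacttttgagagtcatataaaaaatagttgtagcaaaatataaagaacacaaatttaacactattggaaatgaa
Downstream of E(spl)m6-BFM (chr3R:26036634-26036734): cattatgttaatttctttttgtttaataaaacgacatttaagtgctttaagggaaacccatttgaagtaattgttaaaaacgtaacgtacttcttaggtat
Downstream of Ocho, first summit (chr3L:14977919-14978019): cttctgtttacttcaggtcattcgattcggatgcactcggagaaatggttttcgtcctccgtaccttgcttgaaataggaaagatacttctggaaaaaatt
Downstream of Ocho, second summit (chr3L:14978143-14978243): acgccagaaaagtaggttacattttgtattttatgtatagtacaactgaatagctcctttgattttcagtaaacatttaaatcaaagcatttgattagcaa

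**Figure D1:**
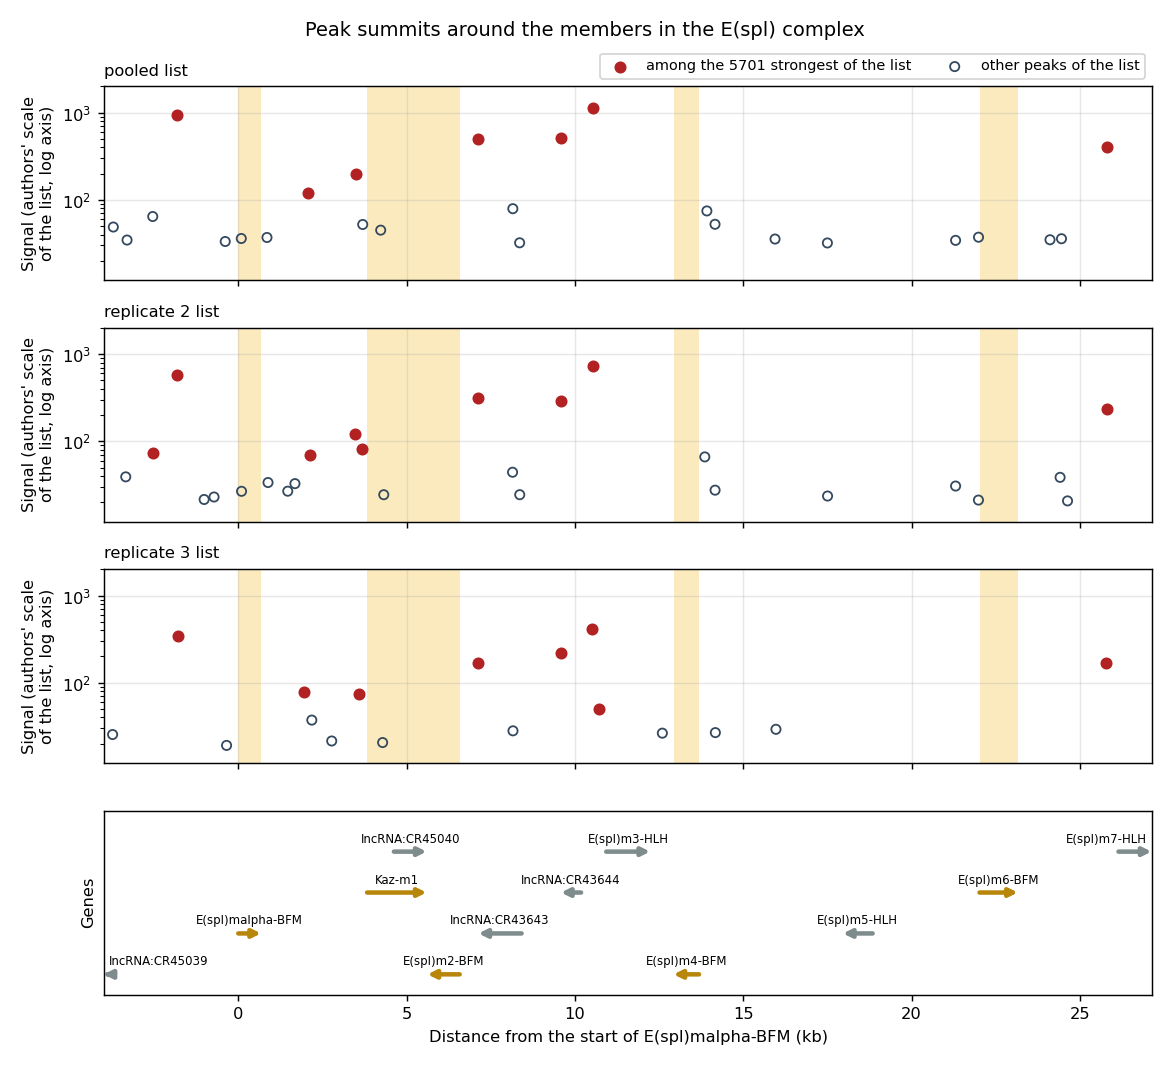
Peak summits around the members in the E(spl) complex, by distance in kb from the start of E(spl)malpha-BFM, with the signal of each list on a log axis in a panel of its own. Filled points are among the 5701 strongest peaks of the list, yellow bands are members, and arrows in the bottom panel point in the direction of transcription. The filled point at 9.59 kb, with pooled signal 515 (rank 541), lies outside the 3 kb window of every member and was not counted. The highest point in each list lies between E(spl)m2-BFM and E(spl)m4-BFM, where the pooled signal is 1129 and the signals of replicates 2 and 3 are 732 and 410.

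E(spl)malpha-BFM, a Bearded family gene of 676 bp without introns (chr3R:26010893-26011568), had the strongest summit that lay nearest to a member's own start. It stood in intergenic DNA 1816 bp upstream of the transcription start site (TSS). The signal there was 929 in the pooled list (rank 136), 580 in replicate 2 (rank 131) and 348 in replicate 3 (rank 152). The replicate summits were 4 bp and 27 bp from the pooled one, so both libraries placed it alike and near the top of their lists. Of all protein-coding genes 2.29% had a summit as strong or stronger in their window. Around the body of E(spl)malpha-BFM itself the pooled peaks were weak, with signal 33.3 at 387 bp upstream of the TSS, 36.0 within the gene and 37.0 just past its end.

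E(spl)m2-BFM, a Bearded family gene of 957 bp transcribed from the reverse strand (chr3R:26016514-26017470), had a summit 556 bp upstream of its TSS. The signal was 495 in the pooled list (rank 596), 312 in replicate 2 (rank 558) and 169 in replicate 3 (rank 762). The replicate summits lay 1 bp from the pooled one in each case. The peak was narrow, 194 bp, where most peaks of the pooled list (23913 of 25791) had 1 fixed width of 416 bp. A summit as strong or stronger was present for 8.53% of protein-coding genes.

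Kaz-m1, the protease inhibitor gene (chr3R:26014721-26016487, up to 2 exons per transcript), abuts E(spl)m2-BFM tail to tail. It therefore shared the m2 summit in its window, and its own nearest thresholded summits were weaker. The nearer lay upstream of its TSS with signal 198 in the pooled list (rank 2758), and the other 1752 bp upstream with 120 (rank 5039). In replicate 2 they had partners 25 bp and 68 bp away with signals 122 (rank 2843) and 69.5 (rank 5567). In replicate 3 the closest summits were 106 bp and 109 bp away, with signals 74.4 (rank 2767) and 37.3 (rank 6467). The second pooled peak also overlapped a stronger one of replicate 3, whose summit lay on its other side, with 78.0 (rank 2611). Both summits also fell within 3 kb of E(spl)malpha-BFM, and the nearer one within 3 kb of E(spl)m2-BFM.

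For E(spl)m4-BFM and E(spl)m6-BFM the strong summits belonged by position to neighbours. E(spl)m4-BFM, a Bearded family gene transcribed from the reverse strand (chr3R:26023821-26024579), lies tail to tail with E(spl)m3-HLH. The strongest summit in its window lay 3148 bp past its own TSS, but only 392 bp separated it from the start of E(spl)m3-HLH, the gene of the tagged protein. The non-coding gene lncRNA:CR43644, on the other side, started 355 bp away. Pooled alignments gave it a signal of 1129 (rank 87), replicate 2 gave 732 (rank 80) and replicate 3 gave 410 (rank 101), the strongest of any member's window. E(spl)m6-BFM (chr3R:26032911-26034047) had its only thresholded summit 3773 bp past its TSS, which placed it 354 bp before the start of E(spl)m7-HLH, another Hairy-related repressor gene of the complex. That summit had a pooled signal of 407 (rank 881), with 232 (rank 1038) in replicate 2 and 169 (rank 754) in replicate 3, within 2 bp of each other. Upstream of their own TSSs these genes had weak pooled peaks. E(spl)m4-BFM had 74.6 (rank 8476) at 233 bp and 52.4 (rank 12361) at 475 bp, and E(spl)m6-BFM had 37.3 (rank 19714) at 30 bp and 34.3 (rank 22282) at 711 bp.

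When each thresholded summit was given instead to the protein-coding gene with the nearest TSS, 4 summits went to members. They were those of E(spl)malpha-BFM, Kaz-m1 and E(spl)m2-BFM, and none went to a gene of the Bearded complex. Of all protein-coding genes 25.8% received a thresholded summit in this way.

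**Figure D2:**
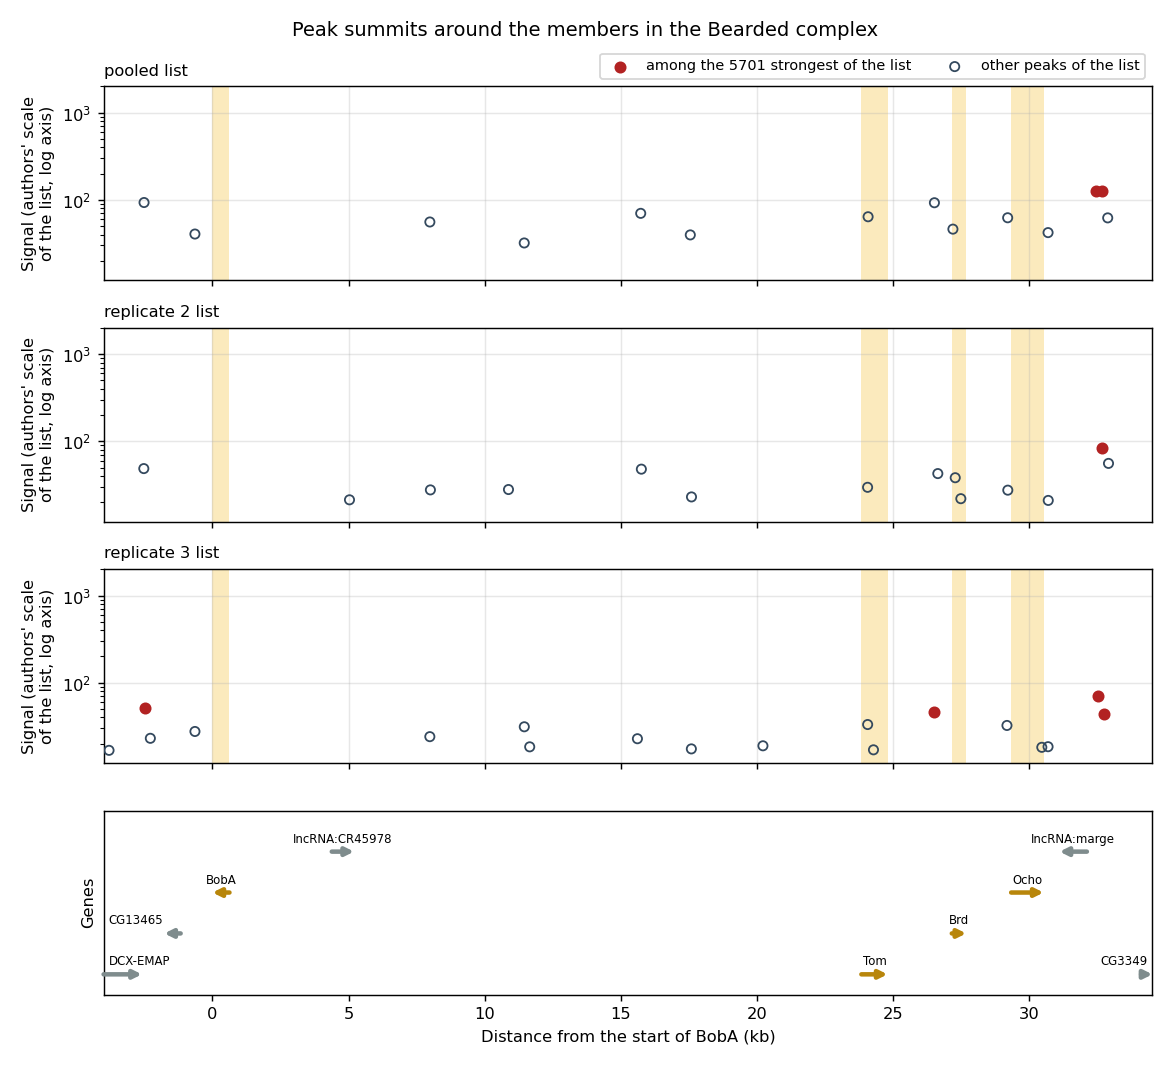
Peak summits around the members in the Bearded complex, by distance in kb from the start of BobA, with signal on the same log axes as in the map of the E(spl) complex. No pooled point around a member exceeds 128, and the filled pooled points are the pair past the end of Ocho, with 125 and 128.

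In the Bearded complex the strongest summits lay past the end of Ocho, a Bearded family gene at the right end of the cluster (chr3L:14974848-14976040). Their pooled signals were 125 (rank 4811) at 3121 bp past the Ocho TSS and 128 (rank 4695) at 3345 bp, in the lower part of the thresholded list, whose median signal was 193. They stood 338 bp and 562 bp upstream of lncRNA:marge, a non-coding gene on the reverse strand, and 1651 bp and 1427 bp upstream of the coding gene CG3349. Replicate 2 had 1 strong summit there, 4 bp from the second, with signal 84.2 (rank 4487). Replicate 3 had partners of both, with 70.8 (rank 2963) and 43.9 (rank 5372), at 55 bp and 67 bp. Upstream of Ocho itself, at 128 bp from the TSS, the pooled list had a peak of 62.3 (rank 10248), with 27.5 (rank 16108) in replicate 2 and 32.4 (rank 7662) in replicate 3.

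Brd, the founding gene of the family (chr3L:14972667-14973198), had its strongest summit 639 bp upstream of its TSS with pooled signal 92.6 (rank 6782), below the weakest thresholded signal of 108. Replicate 3 had 46.3 there (rank 5027), which is among its 5701 strongest, whereas the nearest summit of replicate 2 was 125 bp away with 42.6 (rank 9548). Tom (chr3L:14969344-14970306), whose protein inhibits Neuralized in the early embryonic mesoderm, had the same summit as the strongest of its window, 2684 bp past its TSS. Its own nearest peak lay in its coding exon, 247 bp past the TSS, with pooled signal 64.0 (rank 9965), 29.7 in replicate 2 (rank 14612) and 33.2 in replicate 3 (rank 7433). BobA (chr3L:14945499-14946125), a Bearded family gene at the left end of the cluster, had no pooled summit upstream of its TSS. Its strongest lay 3139 bp past the TSS, with pooled signal 93.1 (rank 6744), 48.6 in replicate 2 (rank 8340) and 51.4 in replicate 3 (rank 4434). That summit was nearer to the coding gene CG13465, which lies between it and BobA, at 1345 bp from the TSS of CG13465. For Brd, Tom and BobA replicate 3 thus ranked the summits higher than replicate 2 did, on opposite sides of rank 5701.

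**Figure D3:**
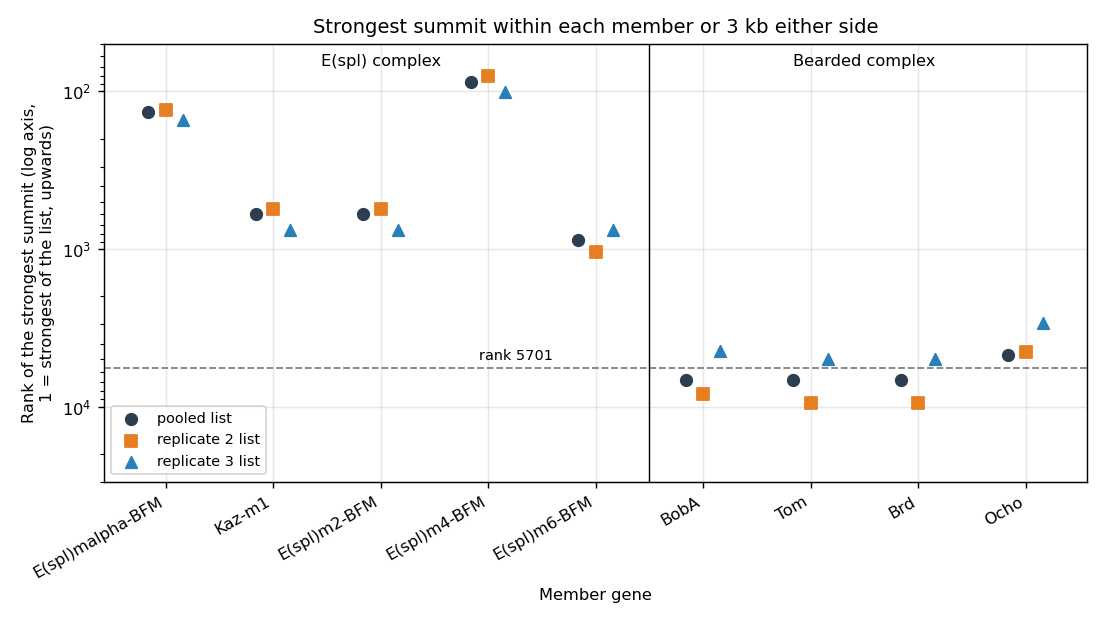
Rank of the strongest summit within each member or 3 kb either side, for the pooled, replicate 2 and replicate 3 lists (log axis, strongest upwards). Members in the E(spl) complex rank between 80 and 1038 in every list, and members in the Bearded complex between 2963 and 9548, with the dashed line at rank 5701.

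Set side by side, the clusters did not overlap in their strongest summits. Ranks of the best summit per member ran from 87 to 881 in the E(spl) complex and from 4695 to 6782 in the Bearded complex in the pooled list. They ran from 80 to 1038 and from 4487 to 9548 in replicate 2, and from 101 to 762 and from 2963 to 5027 in replicate 3. These were 4 and 3 different summits, since neighbours share them. The strongest signal of the E(spl) members was 8.84 times that of the Bearded members by pooled signal, 8.69 times in replicate 2 and 5.79 times in replicate 3. That E(spl) summit lay 392 bp from the start of E(spl)m3-HLH, the gene whose tagged copy the embryos carried as a transgene. Whether the transgene bears on the signal there was not tested. Among all protein-coding genes, 1.63% to 12.2% had a pooled summit as strong as the best of each E(spl) member, and 40.9% to 49.8% had one as strong as the best of each Bearded member.

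**Figure D4:**
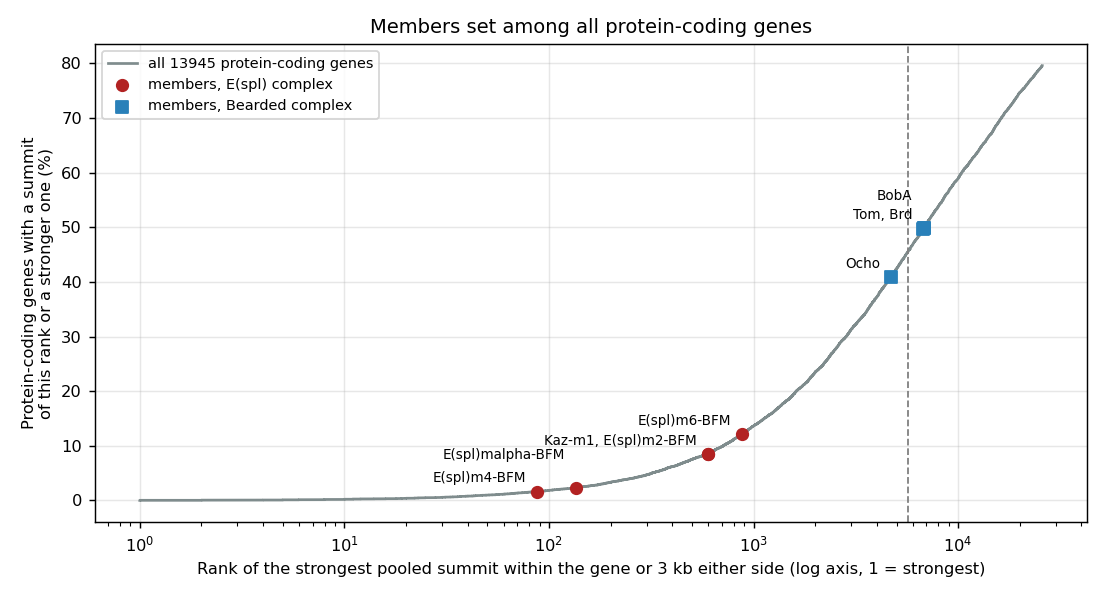
Share of all 13945 protein-coding genes with a pooled summit of a given rank or a stronger one in the gene or 3 kb either side (grey line, log axis of rank), with the members marked on it. Members in the E(spl) complex lie at 1.63% to 12.2% of genes and members in the Bearded complex at 40.9% to 49.8%, with the dashed line at rank 5701.

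Over all pooled peaks, weak ones included, the clusters were less unlike than in their strongest peaks. Counted once each, 21 pooled summits lay in the 26.5 kb covered by the windows of E(spl) members and 10 in the 19.3 kb of Bearded members, or 7.93 and 5.17 per 10 kb. The pooled list had 1.93 per 10 kb of the 6 arms, which also hold DNA far from any gene. The density in like windows around all protein-coding genes was not counted, so a higher density is not read as particular to the members. The median signals of the E(spl) and Bearded summits were 52.1 and 63.1, so the typical summit was no stronger at the E(spl) members in this list. In replicate 2 the median signals were 33.7 and 38.2, at 8.69 and 4.66 summits per 10 kb, against 2.24 over the arms. In replicate 3 they were 37.3 and 32.4, at 5.67 and 5.69 per 10 kb, against 1.85. Of the 31 pooled summits, 25 were intergenic, 3 lay in coding exons, 2 in exons of non-coding genes and 1 in the 5' UTR of Brd. All 8 thresholded ones were intergenic, but the one upstream of E(spl)m2-BFM only just so. The replicate 2 summit of that peak, 1 bp away, fell in an exon of the non-coding gene lncRNA:CR43643. Shares of these classes over all peaks were not counted, so they are not read as a trait of the members.

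Partners in both replicates within 100 bp were found for 4 of the 6 thresholded summits of E(spl) members and for 1 of the 2 of Bearded members. The thresholded list was made from these replicates, so this is a description of how exactly the summits were placed. The share over all thresholded summits was not counted, and with so few summits the clusters cannot be compared in this.

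The choice of genes did not use base composition. In the 101 bp around thresholded summits the share of G and C bases was 17.8% to 32.7% at the 6 summits of E(spl) members, with a median of 24.3%. It was 36.6% to 59.4% at the other 15 pooled summits in the same windows, with a median of 51.5%, and the sets did not overlap. At the Bearded members it was 40.6% and 28.7% at the thresholded summits past Ocho, and 27.7% to 56.4% at the other 8, with a median of 48.0%. All thresholded windows had a median of 32.7%, all other pooled windows 39.6%, and the 6 arms as a whole 42.2%. In the E(spl) windows of replicate 2 the medians were 26.2% at the 8 summits among its 5701 strongest and 51.5% at the other 15. In replicate 3 they were 26.7% at 7 summits and 47.5% at the other 8, and in these lists the sets overlapped, since single summits among the strongest reached 60.4% in replicate 2 and 58.4% in replicate 3. For the Bearded windows of replicate 2 the share was 25.7% at the 1 summit among its strongest, against a median of 48.0% at the other 8. In replicate 3 the medians there were 39.6% at 4 summits and 45.5% at the other 7. Whether base composition bears on the signal was not tested.

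**Figure D5:**
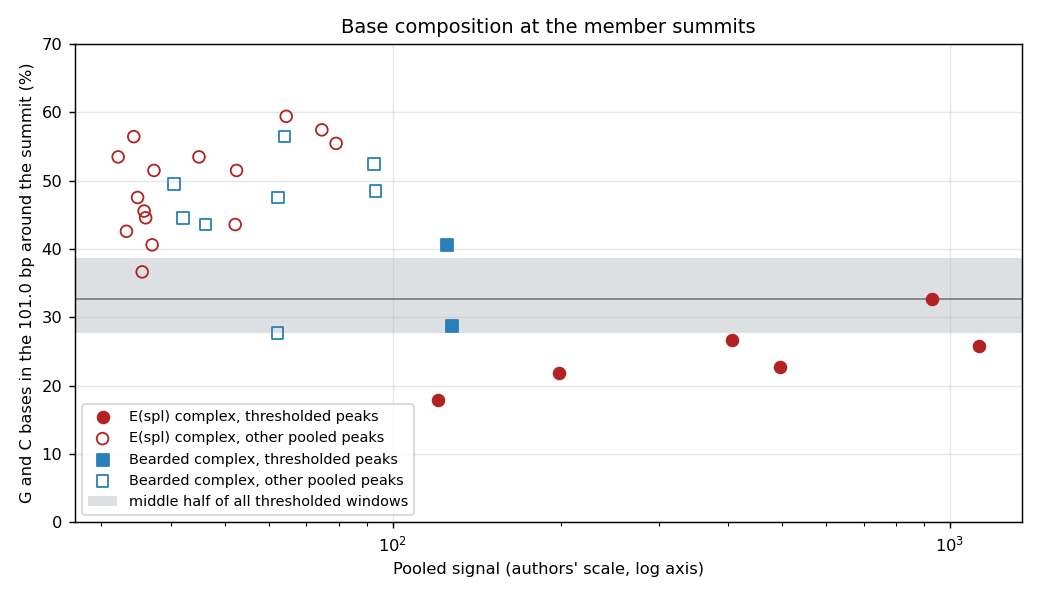
Share of G and C bases in the 101 bp around each pooled summit of the members against its pooled signal (log axis), with filled symbols for thresholded peaks. The grey band spans the quartiles of all thresholded windows, 27.7% to 38.6%, around their median of 32.7%, and 5 of the 6 thresholded summits of E(spl) members fall below it.

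None of the 8 thresholded windows held a match to the sequence motifs searched on both strands. For E(spl) repressors these were the motif CACGTG, the motif CACGCG and the motif CACNAG, and 11.3% of all thresholded windows held at least one. For Su(H) they were the core GTGGGAA, the core GTGAGAA and the core GTGTGAA (3.68%), and for proneural activators the E-box CAGCTG and the E-box CAGGTG (6.05%). The others were the Zelda motif CAGGTAG (0.439%), the GAGA motif GAGAGAG (0.719%) and the DRE motif TATCGATA (1.67%). The Zelda motif and the E-box CAGGTG begin with the same 5 bases.

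With such low shares, 8 thresholded windows are too few to read a lack of motifs from. With 150 bp to each side, 1 of the 8 held an E(spl) motif, 1 a Su(H) core and 1 a proneural E-box. Of all thresholded windows of that width 33.2%, 11.9% and 20.8% did. Weaker summits held some matches too. Of the 31 pooled windows of members, 7 held an E(spl) motif (13.3% of all pooled windows did), 2 a Su(H) core (3.89%) and 3 a proneural E-box (7.10%). Both Su(H) cores were at Ocho and all 3 proneural E-boxes in the E(spl) complex. Of the weaker summits upstream of member TSSs whose values are given above, 4 are printed next. Among the others, the window 711 bp upstream of E(spl)m6-BFM held both the motif CACGCG and the E-box CAGGTG, and those 30 bp upstream of it and 387 bp upstream of E(spl)malpha-BFM held no match. Capitals mark the proneural E-box in the first, the E(spl) motif CACGTG in the second and the Su(H) core in the last, and the window upstream of Brd holds no match.
Upstream of E(spl)m4-BFM, nearer (chr3R:26024762-26024862): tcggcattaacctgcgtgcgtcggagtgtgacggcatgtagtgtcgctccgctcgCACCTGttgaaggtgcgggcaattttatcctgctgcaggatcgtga
Upstream of E(spl)m4-BFM, farther (chr3R:26025004-26025104): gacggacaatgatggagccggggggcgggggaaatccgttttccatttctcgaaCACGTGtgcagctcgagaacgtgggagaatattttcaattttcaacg
Upstream of Brd (chr3L:14971978-14972078): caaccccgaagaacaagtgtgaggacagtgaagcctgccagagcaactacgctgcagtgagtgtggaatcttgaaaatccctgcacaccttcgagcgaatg
Upstream of Ocho (chr3L:14974670-14974770): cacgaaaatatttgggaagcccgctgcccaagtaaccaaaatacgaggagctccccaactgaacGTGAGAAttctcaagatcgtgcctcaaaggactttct

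Promoters, taken from 250 bp before to 50 bp after the start of each gene, were searched in the same way. An E(spl) motif was present for 2 of 5 members in the E(spl) complex (E(spl)m2-BFM and E(spl)m6-BFM) and 1 of 4 in the Bearded complex (Brd), against 36.8% of all promoters. A Su(H) core was present at E(spl)m4-BFM and at Ocho, against 10.9%. A proneural E-box was present at E(spl)m4-BFM, Tom and Brd, against 25.2%, and the Zelda motif at BobA and Brd, against 1.64%. The GAGA motif was present at Kaz-m1, against 5.87%, and the DRE motif at no member, against 9.36%. None of these promoters held a thresholded summit. The share of all promoters that did was not counted, so nothing is read from this.

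Other genes of the pathway, in the same kind of window, carried thresholded summits in 5 of 10 cases outside the complex's bHLH genes and in 6 of its 7 bHLH genes, beside 45.6% of all protein-coding genes. The gene for Neuralized (neur), the ligase that Bearded proteins bind, had 3, the strongest with a pooled signal of 468 (rank 665), 304 in replicate 2 and 168 in replicate 3. The genes with none were Delta, Ser, Su(H), H, lqf and E(spl)m5-HLH. Some summits were counted more than once, so these genes are not independent of each other or of the members. The best pooled summit of E(spl)m3-HLH (rank 87) was already counted for E(spl)m4-BFM. Likewise E(spl)m6-BFM shared its summit (rank 881) with E(spl)m7-HLH. The gene gro, among the 10, had the same best summit as E(spl)m8-HLH, with pooled signal 869 (rank 156). For Delta, whose endocytosis Neuralized drives, the strongest pooled summit had signal 78.8 (rank 8016), with 67.3 (rank 5780) in replicate 2 and 33.1 (rank 7466) in replicate 3. It was weaker than the strongest of Brd, Tom and BobA in the pooled list and replicate 3, and stronger in replicate 2.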

How the data were processed

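ChIP-seq peak lists of 2 biological replicates (E(spl)m3-GFP ChIP) on build dm6 were used. The deposited listings say that the authors called peaks on each replicate and on their pooled alignments, each with a control file, and that they made the thresholded list with the irreproducible discovery rate procedure. For the aligner and peak caller, no name or version is given in the sources used here. The deposited signal is the caller's score per peak, scaled separately in each list. The deposited −log10 q values were not used. Lists on dm3 were not used.

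Summits were converted to 1-based positions, and genes came from Ensembl release 115 on the same assembly, without transposable elements. Motifs were sought in the RefSeq sequence of that assembly, and the sequence of 1 thresholded window is not reported here. Python 3.11.15 with pandas 2.3.3 and matplotlib 3.10.9 was used, and the window and motif counts were tested on simulated data. All 9 members are named, with every thresholded summit and, for members without one, the strongest pooled summit. Distances are to the annotated 5' end of each member. Comparisons are descriptions without tests. Members, lists and motifs were chosen with earlier results of these data known. Alternatives changed the distance, list, threshold, assignment, matching and motif window.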

Additional observations from a re-analysis of the deposited data

How the results depend on the processing

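For the members in the E(spl) complex, the count of 5 with a thresholded summit held within 5 kb, in the stricter list (the stronger part of the thresholded list, 2850 peaks), in the whole pooled list and without either replicate. It was 2 within 1 kb and 3 by nearest TSS. The share of all protein-coding genes was 33.9% within 1 kb, 54.4% within 5 kb, 30.1% in the stricter list, 79.6% in the whole pooled list and 25.8% by nearest TSS. The count of 1 in the Bearded complex was 0 within 1 kb, in the stricter list and by nearest TSS, 2 within 5 kb and 4 in the whole pooled list. Leaving out a replicate gave 1 to 4, with 4 from replicate 3 alone. The 8 thresholded summits became 2 within 1 kb, 5 in the stricter list, 31 in the whole pooled list and 4 by nearest TSS, and 9 to 11 when a replicate was left out. Partners in both replicates were found for 5 of 8 summits, and for all 8 when any overlap of the intervals counted. For these partners the share over all thresholded summits was not counted. The best pooled rank was 87 in the E(spl) complex and 596 within 1 kb, and in the Bearded complex 4695, 6782 within 1 kb and 2963 to 4487 when a replicate was left out. With 150 bp to each side, 1 thresholded window each held an E(spl), a Su(H) and a proneural motif. The causes of these shifts were not tested. No paired analysis was possible because there is 1 group. Depth is unknown, so a missing summit says only that none was listed there.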
